A study of Mus musculus with 24 samples.

Results

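The genes described are *Cxcl9*, *Cxcl10*, *Cxcl11* and *Ccl5*, 4 chemokine genes that are classical targets of interferon signalling. They were taken by name from the gene count table, where they are 4 of 55487 listed genes and 4 of the 21543 genes with at least 1 count. All 4 were followed through every group of a gene silencing experiment in AML-12 cells, an established line of mouse hepatocytes, in which messenger RNA was measured by BRB-seq, a bulk method that barcodes samples early and reads the 3′ end of transcripts. There were 24 libraries in 6 groups of 4. Cells of BSA had only the albumin carrier, whereas those of PAL were kept for 48 hours with the saturated fatty acid palmitate at 0.25 mM. The other groups received 0.25 mM palmitate for 48 hours as well, and a transfection with esiRNA, a pool of short interfering RNAs cut from a longer double-stranded RNA, for the last 24 hours. CON received 200 nM of esiRNA to *Egfp*, a gene that mouse cells do not carry. BMAL1 received 100 nM to *Bmal1*, CHREBP received 100 nM to *Chrebp*, and BOTH received the 2 together at 200 nM in total.

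Several features of the design limit these groups as models of silencing. BSA and PAL were not transfected at all. By the plate positions in the labels, column 1 held both of these groups, column 2 held the CON and BMAL1 libraries, and column 3 held those of CHREBP and of BOTH. Transfection and column therefore cannot be told apart in CON against PAL, nor *Chrebp* esiRNA and column in CHREBP or BOTH against CON. CON carried 200 nM of esiRNA and CHREBP and BMAL1 carried 100 nM each, so that dose differed as well in those comparisons with CON. The labels do not say that replicates were separate cultures, and p-values measure only the spread between these libraries. Loss of the targets was partial. *Arntl*, which encodes BMAL1, was 44.7 ± 11.6 normalized counts in CON, 26.0 ± 4.82 in BMAL1 and 22.8 ± 6.64 in BOTH. *Mlxipl*, which encodes ChREBP, was 35.6 ± 7.26 in CON, 25.9 ± 4.75 in CHREBP and 17.04 ± 4.91 in BOTH (SD, n = 4). In BOTH against CON both targets were called lower, *Arntl* at -0.98 (SE 0.28, DESeq2 *Padj* = 0.00994) and *Mlxipl* at -1.07 (SE 0.30, *Padj* = 0.00762) on the log2 scale. The study reports both genes as silenced, from its transcriptome data and from quantitative PCR. In the fits used here, neither single esiRNA gave a called fall of its target. The log2 fold change of *Arntl* in BMAL1 against CON was -0.78 (SE 0.28), with no *Padj* from DESeq2, and that of *Mlxipl* in CHREBP against CON was -0.46 (SE 0.28, DESeq2 *Padj* = 0.593).

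Chemokines are small secreted proteins that direct the migration of leukocytes. CXCL9, CXCL10 and CXCL11 share the receptor CXCR3 of activated T cells and natural killer cells, and CCL5 acts through receptors such as CCR1 and CCR3 on T cells, monocytes and other leukocytes. In hepatocytes and many other cells, double-stranded RNA, viral RNA and interferons raise these genes through interferon regulatory factors and NF-κB. BMAL1 is the core activator of the circadian clock and ChREBP is a glucose-responsive activator of lipogenic genes, and both are basic helix-loop-helix proteins that bind E-box sequences.

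*Cxcl9* (ENSMUSG00000029417, chromosome 5, 92321347 to 92328079), *Cxcl10* (ENSMUSG00000034855, chromosome 5, 92346638 to 92348889) and *Cxcl11* (ENSMUSG00000060183, chromosome 5, 92359544 to 92365485) lie side by side on the minus strand of GRCm38 (GENCODE M21), the build on which the counts were made under its name mm10. *Ccl5* (ENSMUSG00000035042) lies on the minus strand of chromosome 11, from 83525778 to 83530518. *Cxcl11* is annotated as a polymorphic pseudogene, a class used where some strains carry a disrupted copy, and the other 3 are protein coding. *Cxcl10* and *Cxcl11* lie within the span of *Art3* on the other strand. It had between 0 and 2 counts in each of the 24 libraries, and whether the counting used strand is not given in the sources used here.

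The 250 bases before the start of the gene are shown for the 2 of the 4 genes that matched the RefSeq promoter table (GRCm38.p6), because the genes of this group moved together and interferon-induced factors bind near the start. Both are on the minus strand of chromosome 5, *Cxcl9* at chr5:92328080-92328329 and *Cxcl10* at chr5:92348890-92349139, written 5′ to 3′. Capitals mark matches, on either strand, to the interferon-stimulated response element (ISRE, GAAANNGAAA) or to the NF-κB site (kB) consensus.

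Cxcl9: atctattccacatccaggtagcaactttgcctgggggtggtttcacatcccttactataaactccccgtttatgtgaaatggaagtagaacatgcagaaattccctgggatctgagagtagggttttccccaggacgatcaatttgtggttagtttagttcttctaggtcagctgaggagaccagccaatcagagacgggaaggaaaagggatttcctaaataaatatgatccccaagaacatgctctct
Cxcl10: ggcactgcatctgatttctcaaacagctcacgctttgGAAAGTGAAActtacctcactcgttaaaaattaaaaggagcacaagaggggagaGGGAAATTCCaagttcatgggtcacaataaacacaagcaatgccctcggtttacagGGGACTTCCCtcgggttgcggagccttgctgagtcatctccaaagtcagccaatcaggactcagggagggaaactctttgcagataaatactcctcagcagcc

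In *Cxcl10* the ISRE letters stood at bases -213 to -204 before the start and the kB consensus was matched at -159 to -150 and at -103 to -94, with no overlap between these matches. Neither motif was matched in the *Cxcl9* window. The same search over 32851 promoters of this length found the ISRE letters in 2.98% and the kB consensus in 3.90%. The E-box CACGTG, found in 6.02% of promoters, was absent from both windows. A match is a description of these letters only. The promoters of *Cxcl11* and *Ccl5* are not shown.

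The libraries held between 5399700 and 11237474 gene counts, and 3 counts, the smallest number treated as detectable, corresponded to between 0.267 and 0.556 CPM, a count scaled to the library total. Each of the 36 pairs of replicates differed by more than counting noise (chi-square per degree of freedom between 2.69 and 23.1), and every library was kept as 1 replicate. The 12 hepatocyte markers summed to between 6461 and 8127 CPM, mostly from *Krt18* and *Krt8*, keratins of simple epithelia in general, and transferrin (*Trf*) and transthyretin (*Ttr*) were expressed as well. Other defining markers were low. *Alb*, the albumin gene, had between 86 and 242 counts per library, the apolipoprotein genes *Apob* between 13 and 52, *Apoa1* between 2 and 15 and *Apoa2* between 0 and 9, and the receptor gene *Asgr1* between 0 and 8. Of 8 markers of T and natural killer cells, cells that can make *Ccl5* themselves, 7 had 0 counts in all 24 libraries, among them *Cd3e*, *Cd8a*, *Nkg7* and *Ncr1*, and the summed level of the list was 0 in every BSA, PAL, CHREBP and BOTH library and reached 0.540 CPM in CON. The macrophage markers *Adgre1* and *Clec4f* had 0 counts throughout, and the 8 macrophage markers summed to between 79.9 and 88.0 CPM in CON, 82.8 and 91.4 in CHREBP and 73.9 and 101 in BOTH, almost all from *Cd14*. Of 6 endothelial markers, 4 were at 0 in every library, and the list summed to at most 0.623 CPM. The 6 markers of stellate cells and fibroblasts summed to at most 3.18 CPM. In bulk RNA, more cells expressing a gene and more RNA per cell cannot be told apart.

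Values below are counts divided by the DESeq2 size factor of the library, called normalized counts. Fold changes and tests came from DESeq2 on all genes whose counts summed to 25 or more over the fitted libraries, and a gene is called a differentially expressed gene (DEG) at a Benjamini-Hochberg adjusted p (*Padj*) under 0.1. Because the number of 3′ reads per transcript may differ from gene to gene, counts of different genes are not compared as levels.

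Untransfected cells made very little of any of the 4 transcripts, and palmitate did not raise them beyond the spread of the replicates. *Cxcl10* was 12.8, 20.3, 26.2 and 15.6 normalized counts in BSA replicates 1 to 4, and 17.2, 25.1, 23.5 and 16.3 in PAL. These groups overlapped almost fully. *Cxcl9* was 2.57, 6.77, 1.80 and 0 in BSA and 2.64, 4.02, 4.47 and 5.44 in PAL. *Cxcl11* was 3.43, 4.84, 9.92 and 0 in BSA and 1.32, 6.04, 6.71 and 3.89 in PAL. *Ccl5* was 4.28, 2.90, 0.902 and 2.83 in BSA and 0, 5.03, 1.12 and 4.66 in PAL. Apart from *Cxcl10*, these values rest on between 0 and 11 raw counts per library, at or close to the limit of detection. In PAL against BSA only *Cxcl10* and *Cxcl11* had a *Padj*. Neither was called, against 14.3% of the 12827 genes tested, which is near the background. The log2 fold change was 0.13 for *Cxcl10* (95% interval -0.61 to 0.87, DESeq2 *Padj* = 0.907), 0.55 for *Cxcl9* (-1.20 to 2.30) and -0.05 for *Cxcl11* (-1.66 to 1.55). *Ccl5* had too few counts to be fitted. The intervals of *Cxcl9* and *Cxcl11* are wide enough to hold a 2-fold change in either direction.

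**Figure D1:**
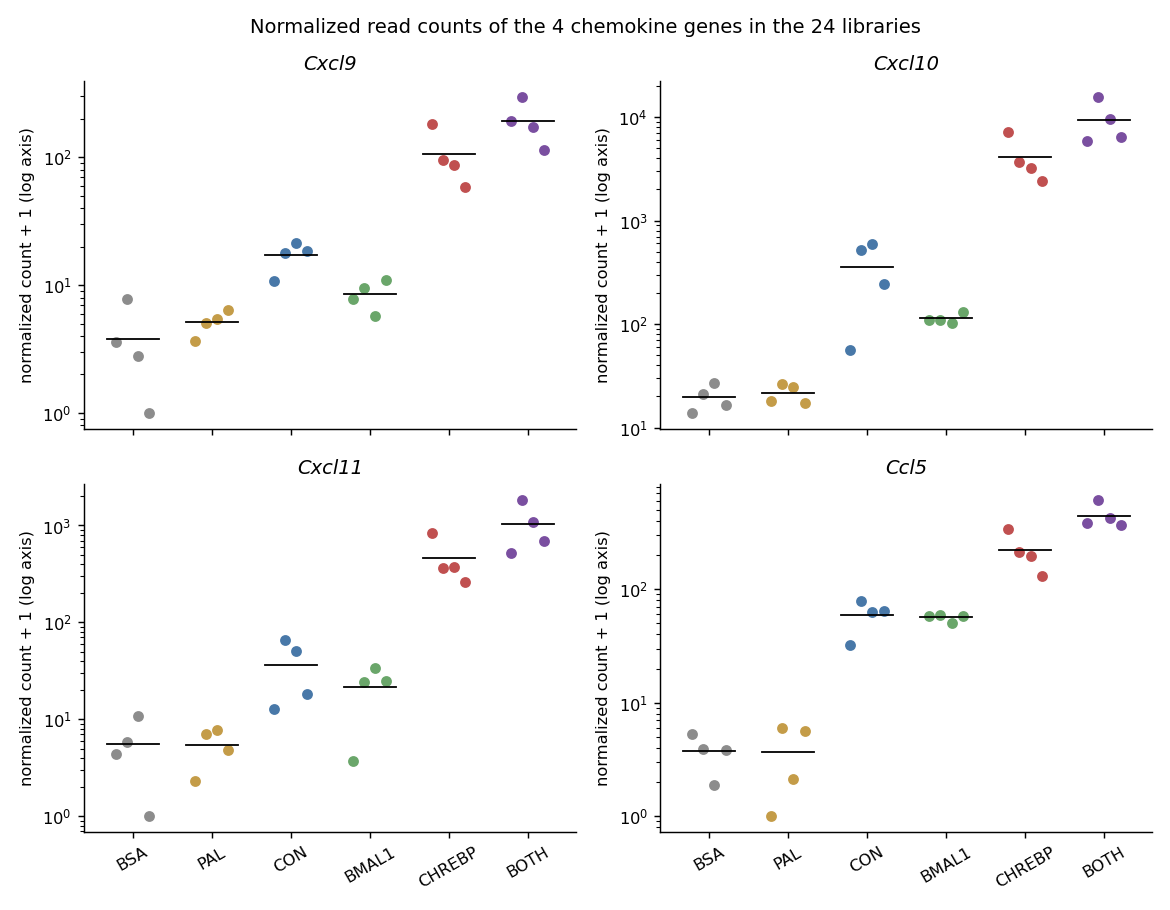
Normalized count + 1 of each gene on a log axis (vertical) in the 6 groups (horizontal), with 1 point per library in the order of replicates 1 to 4 and a line at the group mean. For each gene the CHREBP and BOTH libraries lie above all libraries of the other groups, and the lowest of the 4 CON libraries is replicate 1 in each panel.

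All 4 transcripts were higher in CON, the transfected control, than in PAL. *Cxcl10* was 54.8, 518, 595 and 242 normalized counts in CON replicates 1 to 4, with replicate 1 far under the others and still above every PAL library. *Cxcl11* was 11.7, 64.7, 49.4 and 17.4 in CON, spread over 5.55-fold. *Cxcl9* was 9.87, 16.9, 20.6 and 17.4 in CON. *Ccl5* was 31.4, 78.2, 61.7 and 62.6. None of the 4 genes overlapped between CON and PAL, a separation that 4.18% of all genes tested showed in this direction. All 4 were called higher, against 1.59% of all genes tested. The rise was 4.29 on the log2 scale for *Ccl5* (SE 0.52, DESeq2 *Padj* = 2.48e-13), 4.10 for *Cxcl10* (SE 0.70, *Padj* = 2.01e-06), 2.99 for *Cxcl11* (SE 0.56, *Padj* = 2.88e-05) and 1.92 for *Cxcl9* (SE 0.55, *Padj* = 0.0283). The call of *Cxcl9* was lost without CON replicate 2 (DESeq2 *Padj* = 0.132), CON replicate 3 (0.212) or CON replicate 4 (0.106).

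In BMAL1 the transcripts were at or under the level of CON, and none of the 4 was called in either direction, against 0.490% of the 13883 genes tested, so that 0 of 4 is near the background. Calls were few and unstable here, with 45 genes called lower by DESeq2, 10 by edgeR, 26 without independent filtering, 85 without CON replicate 1 and 11 without CON replicate 2. *Cxcl10* was 109, 109, 102 and 129 normalized counts in BMAL1 replicates 1 to 4. All of them lay inside the range of CON, above its replicate 1 and below the other 3 libraries, with a spread of 10.2% of the mean against 70.8% in CON. The log2 fold change of *Cxcl10* was -1.65 (SE 0.57, 95% interval -2.78 to -0.53, DESeq2 *Padj* = 0.253). It was called only where CON replicate 1 was left out (log2 fold change -2.01, *Padj* = 0.00254). *Cxcl9* was 6.79, 8.50, 4.79 and 10.05 in BMAL1, and only its replicate 4 reached the lowest CON library (log2 fold change -1.10, SE 0.49, *Padj* = 0.529). *Cxcl11* was 2.72, 23.4, 32.6 and 23.8, with replicate 1 at 2 raw counts (log2 fold change -0.79, SE 0.67, *Padj* = 0.892). *Ccl5* was 57.0, 58.4, 49.8 and 57.6 in BMAL1, inside the range of CON. Its log2 fold change was -0.08 (SE 0.32, *Padj* = 0.990) with an interval of -0.70 to 0.55. Within libraries, the log2 ratio of *Cxcl10* to *Ccl5* differed by -1.17 between BMAL1 and CON, which did not pass the exact permutation test (2-sided p = 0.143, n = 4 per group). Against the untransfected PAL libraries, every BMAL1 library of *Cxcl10* and of *Ccl5* was higher, a separation that 4.52% of 12786 genes showed in this direction.

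All 4 transcripts rose in CHREBP. *Cxcl10* was 7243, 3713, 3181 and 2419 normalized counts in CHREBP replicates 1 to 4, the lowest of them over 4 times the highest CON library. *Cxcl11* was 836, 367, 374 and 260. *Cxcl9* was 181, 94.7, 86.8 and 57.6. *Ccl5* was 340, 211, 195 and 128. In each gene the highest library was replicate 1 and the lowest replicate 4, and no library overlapped with CON, which held for 5.01% of all genes tested in this direction. The group means were 11.7 times that of CON for *Cxcl10*, 12.8 times for *Cxcl11*, 6.49 times for *Cxcl9* and 3.74 times for *Ccl5*. The log2 fold changes were 3.55 (SE 0.57, DESeq2 *Padj* = 1.15e-07), 3.67 (SE 0.65, *Padj* = 2.87e-06), 2.69 (SE 0.41, *Padj* = 2.00e-08) and 1.89 (SE 0.31, *Padj* = 1.78e-07) in the same order. Thus 4 of 4 were called higher, against 2.65% of all genes tested. Sorted by fold change among 10576 genes with a mean of at least 20, *Cxcl11* was number 6, *Cxcl10* number 11, *Cxcl9* number 40 and *Ccl5* number 73. CHREBP received the lower dose of esiRNA, and the comparison of CHREBP with BMAL1 sets 2 groups at 100 nM against each other. There too all 4 were called higher, against 2.90% of genes tested, with log2 fold changes of 5.20 for *Cxcl10*, 4.46 for *Cxcl11*, 3.79 for *Cxcl9* and 1.97 for *Ccl5* (largest DESeq2 *Padj* 2.84e-08, for *Ccl5*). These groups were in different plate columns.

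The highest values were in BOTH. *Cxcl10* was 5809, 15659, 9491 and 6453 normalized counts in BOTH replicates 1 to 4. *Cxcl11* was 525, 1823, 1089 and 684. *Cxcl9* was 190, 297, 171 and 113. *Ccl5* was 379, 605, 423 and 364. Replicate 2 was the highest library in each of the 4 genes. Against CON, the other group at 200 nM, all 4 were called higher, compared with 5.99% of genes tested, and none overlapped, compared with 6.42%. The log2 fold changes were 4.84 for *Cxcl11* (SE 0.65, DESeq2 *Padj* = 1.57e-11), 4.73 for *Cxcl10* (SE 0.57, *Padj* = 2.02e-14), 3.57 for *Cxcl9* (SE 0.41, *Padj* = 5.42e-16) and 2.91 for *Ccl5* (SE 0.31, *Padj* = 5.87e-19). CHREBP and BOTH were compared with the same 4 CON libraries. Against BMAL1 all 4 were again called higher, compared with 6.35% of genes tested, with log2 fold changes of 6.38 for *Cxcl10*, 5.63 for *Cxcl11*, 4.67 for *Cxcl9* and 2.99 for *Ccl5*. The likelihood ratio test over the 4 esiRNA groups called all 4 genes, compared with 9.92% of genes tested, with DESeq2 *Padj* between 1.44e-28 for *Cxcl9* and 1.08e-15 for *Cxcl11*.

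**Figure D2:**
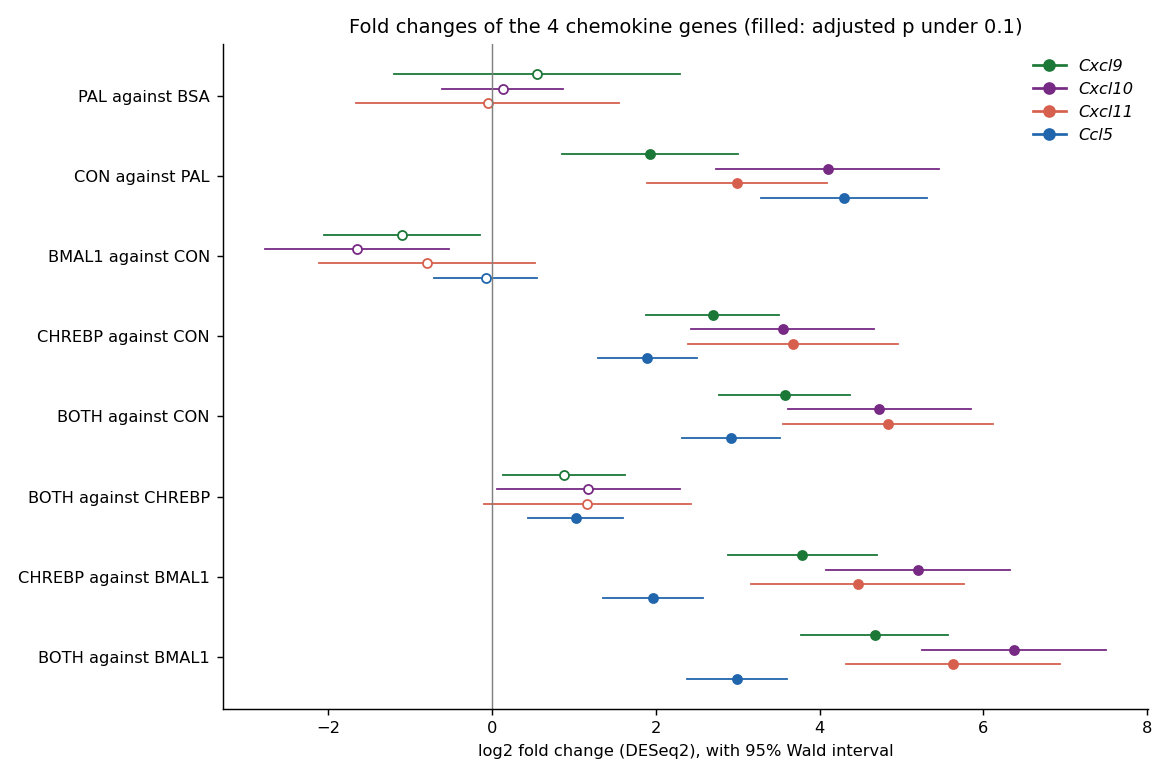
Log2 fold change (horizontal, DESeq2) with its 95% Wald interval for each gene in 8 comparisons (vertical). Filled points had a *Padj* under 0.1 and open points did not or had none, and in CHREBP or BOTH against CON all 4 intervals lie above 0, with *Ccl5* at 1.89 and 2.91 the smallest of the 4. *Ccl5* was not fitted in PAL against BSA.

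Adding *Bmal1* esiRNA to *Chrebp* esiRNA was read from BOTH against CHREBP, 2 groups in the same plate column. The mean was 2.26 times higher for *Cxcl10*, 2.24 times for *Cxcl11*, 2.03 times for *Ccl5* and 1.84 times for *Cxcl9*. Only *Ccl5* was called (log2 fold change 1.02, SE 0.30, DESeq2 *Padj* = 0.0601), against 0.843% of genes tested, and only *Ccl5* had no overlap between the groups, which held for 1.94% of all genes tested. Its lowest BOTH library, at 364, stood just above its highest CHREBP library, at 340. The call of *Ccl5* was lost without CHREBP replicate 2 (DESeq2 *Padj* = 0.201), CHREBP replicate 3 (0.219), BOTH replicate 2 (0.227) or BOTH replicate 3 (0.150), and where the 8 libraries were fitted alone (0.124). *Cxcl10* (log2 fold change 1.18, 95% interval 0.06 to 2.29, *Padj* = 0.526), *Cxcl11* (1.16, -0.10 to 2.43, *Padj* = 0.635) and *Cxcl9* (0.88, 0.14 to 1.62, *Padj* = 0.397) had fold changes of like size and wider spreads. Without CHREBP replicate 1, *Cxcl9* was called as well (log2 fold change 1.27, *Padj* = 0.00105). BOTH carried 200 nM of esiRNA and CHREBP 100 nM, and their plate rows differed, so that neither can be told apart from *Bmal1* esiRNA here.

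The effect of *Bmal1* esiRNA with *Chrebp* esiRNA was compared with its effect without by an interaction term. For *Cxcl10* the first was 1.18 and the second -1.65 on the log2 scale, a difference of 2.83 (SE 0.81, DESeq2 *Padj* = 0.0379). For *Cxcl9* the difference was 1.98 (SE 0.62, *Padj* = 0.0713). These 2 of 4 genes were called, against 1.20% of all genes tested. The difference was 1.96 for *Cxcl11* (SE 0.93, *Padj* = 0.464) and 1.10 for *Ccl5* (SE 0.44, *Padj* = 0.280). The dose rose from 100 to 200 nM in one arm and fell from 200 to 100 nM in the other, and this cannot be told apart from the interaction. Each of the effects was taken within 1 plate column, and both set rows E to H against rows A to D. The call of *Cxcl10* was lost without CON replicate 2 (DESeq2 *Padj* = 0.109), CON replicate 3 (0.117), CHREBP replicate 3 (0.103), CHREBP replicate 4 (0.110) or BOTH replicate 2 (0.120). That of *Cxcl9* was lost without CON replicate 2 (0.179), CON replicate 4 (0.127), BMAL1 replicate 2 (0.137), BMAL1 replicate 3 (0.200) or BOTH replicate 1 (0.113), with edgeR (0.166) and without independent filtering (0.103). With 1 library left out, *Cxcl9* was called in 4 of 16 fits and had no *Padj* in 7, and it had none without the count filter either. *Ccl5* was called without CON replicate 1 (*Padj* = 0.00805) or CHREBP replicate 1 (0.00140).

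The order of the groups was nearly shared by the 4 genes. For *Cxcl9* and *Cxcl10* the means rose from BSA through PAL, BMAL1, CON and CHREBP to BOTH, and for *Cxcl11* and *Ccl5* PAL stood marginally under BSA. Neighbouring groups in this order were separated beyond their spread, without overlap, at the step from CON to CHREBP in all 4 genes (2-sided exact permutation p = 0.0286 each, the smallest that 4 against 4 libraries allow, unadjusted). The step from PAL to BMAL1 was also without overlap for *Cxcl10*, 5.47-fold (exact permutation p = 0.0286). For *Ccl5* the neighbour under BMAL1 was BSA, so that palmitate changed at this step as well, and the step was 20.4-fold without overlap (exact permutation p = 0.0286), from 1 to 5 raw counts per BSA library. Of all genes, 4.52% were higher in BMAL1 than in PAL without overlap and 5.39% higher in BMAL1 than in BSA. The step from untransfected cells to BMAL1 overlapped for *Cxcl9*, 1.82-fold (exact permutation p = 0.0571), and *Cxcl11*, 4.53-fold (p = 0.114, exact permutation). The step from BMAL1 to CON overlapped in all 4 genes, and that from CHREBP to BOTH in all but *Ccl5*. Summed over the 4 genes, a library held between 2.41 and 5.25 CPM in the untransfected groups, 14.2 and 95.3 in CON, 23.2 and 29.5 in BMAL1, 374 and 1100 in CHREBP and 889 and 2378 in BOTH.

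Because each library gives all 4 transcripts, the ratio of one gene to another can be read within a library. It was taken as log2(normalized count + 1) of the first gene minus that of the second, so that at low counts it depends on the pseudocount and the size factor, and 6 pairs of genes in 6 comparisons gave 36 tests. Of these, 15 had an exact permutation p of 0.0286, unadjusted, the smallest that n = 4 against 4 can give. The Benjamini-Hochberg value of each of them over the 36 exact permutation tests was 0.0686. *Cxcl10* and *Cxcl11* had a narrow range of ratios in CHREBP and BOTH and a wide one in the groups with few counts. Their log2 ratio was 2.14, 2.98, 3.56 and 3.73 in CON replicates 1 to 4, 4.88, 2.18, 1.62 and 2.39 in BMAL1, whose replicate 1 rests on 2 counts of *Cxcl11*, 3.11, 3.34, 3.08 and 3.21 in CHREBP, and 3.46, 3.10, 3.12 and 3.24 in BOTH, and CHREBP differed from CON by 0.08 (2-sided exact permutation p = 0.886).

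*Ccl5* changed by less than the CXC genes between CON and CHREBP. The log2 ratio of *Cxcl10* to *Ccl5* was 0.78, 2.71, 3.25 and 1.94 in CON, 0.92, 0.89, 1.03 and 1.15 in BMAL1, 4.41, 4.13, 4.02 and 4.22 in CHREBP, and 3.93, 4.69, 4.49 and 4.14 in BOTH. Every CHREBP and BOTH library was above every CON and BMAL1 library. The difference from CON was 2.03 in CHREBP and 2.14 in BOTH, and CHREBP was 3.20 above BMAL1 (2-sided exact permutation p = 0.0286 each, n = 4 per group). Between CHREBP and CON, *Cxcl11* to *Ccl5* moved by 1.94 and *Cxcl9* to *Ccl5* by 0.67 (exact permutation p = 0.0286 each). *Cxcl10* rose by more than *Cxcl9*, with a ratio higher by 1.35 in CHREBP and 1.63 in BOTH than in CON (exact permutation p = 0.0286 each). Within CHREBP the ratio of *Cxcl10* to *Cxcl9* was 5.32, 5.28, 5.18 and 5.37, an SD of 0.08, while *Cxcl10* itself spanned 2.99-fold in the same libraries.

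Between CON and PAL, *Cxcl9* to *Ccl5* fell by 2.55 and *Cxcl11* to *Ccl5* by 1.70 (2-sided exact permutation p = 0.0286 each), whereas *Cxcl10* to *Ccl5* differed by -0.69 with overlap (exact permutation p = 0.429) and by 0.33 with a pseudocount of 5. The PAL values of *Cxcl9*, *Cxcl11* and *Ccl5* rest on 0 to 7 raw counts per library. In BMAL1 against CON, *Cxcl9* to *Ccl5* was lower by 1.01 without overlap (exact permutation p = 0.0286), with log2 ratios of -2.90, -2.65, -3.13 and -2.41 in BMAL1 and -1.58, -2.15, -1.54 and -1.79 in CON. None of the 6 pairs differed between BOTH and CHREBP with a p under 0.05, the differences lying between -0.16 and 0.28 and the smallest exact permutation p being 0.200.

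**Figure D3:**
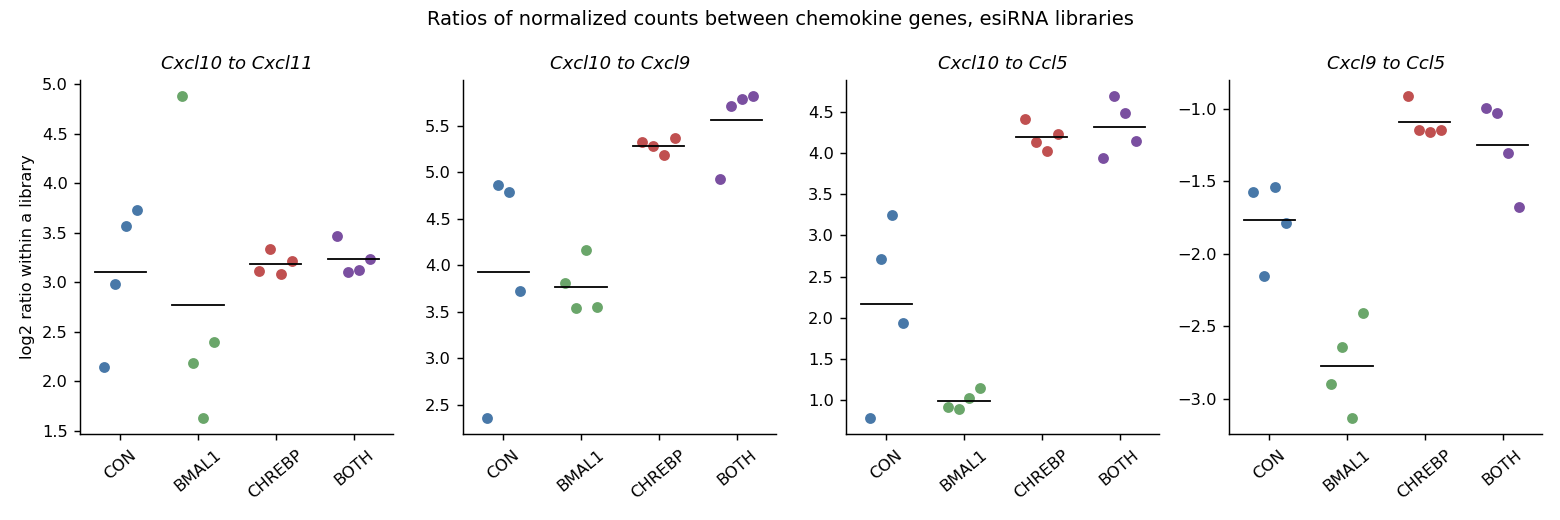
Log2 ratio of the normalized counts + 1 of a pair of genes within a library (vertical) in the 4 esiRNA groups (horizontal), with 1 point per library in the order of replicates 1 to 4 and a line at the mean. The ratio of *Cxcl10* to *Cxcl11* has group means between 2.77 and 3.23, whereas that of *Cxcl10* to *Ccl5* lies at 4.02 or above in the CHREBP libraries and at 3.25 or below in the CON libraries.

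In CON, CHREBP and BOTH some libraries were the highest or lowest of their group in all 4 genes. CON replicate 1 was the lowest of its group for all 4, CHREBP replicate 1 the highest and replicate 4 the lowest for all 4, and BOTH replicate 2 the highest for all 4. In BMAL1, replicate 3 was the lowest for *Cxcl9*, *Cxcl10* and *Ccl5* and the highest for *Cxcl11*. Over the 16 esiRNA libraries, deviations from the group mean of log2(normalized count + 1) had a Pearson r of 0.88 between *Cxcl10* and *Ccl5*, 0.86 between *Cxcl9* and *Ccl5*, 0.73 between *Cxcl9* and *Cxcl10*, 0.67 between *Cxcl10* and *Cxcl11*, 0.59 between *Cxcl11* and *Ccl5* and 0.50 between *Cxcl9* and *Cxcl11*. These are descriptions over libraries that share depth and position, without a test. Among 10562 genes with a mean of at least 20, the one nearest to *Cxcl10* in such deviations was *Rsad2*, an interferon-induced antiviral enzyme (r = 0.98), followed by *Parp12* and *Ifit3b*. *Tap1*, the antigen peptide transporter, was nearest to *Cxcl11* (r = 0.95), its partner subunit *Tap2* to *Cxcl9* (r = 0.89), and the transcription factor *Sp1* to *Ccl5* (r = 0.94), ahead of the class I gene *H2-K1* (r = 0.90). Over all 24 libraries, where the groups themselves drive the values, *Parp12* was nearest to *Cxcl10* (r = 0.99) and *Cxcl9* (r = 0.97), *Tap1* to *Cxcl11* (r = 0.97) and *Ifit1* to *Ccl5* (r = 0.95).

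Leukocyte receptors for these chemokines were not detected in these cells. *Cxcr3*, *Ccr1* and *Ccr3* had 0 counts in all 24 libraries, which allows up to between 0.267 and 0.556 CPM per library. Of a list of 9 receptors and processing genes, 5 had a count in any library. The syndecans *Sdc1* and *Sdc4*, surface proteoglycans that bind chemokines, were expressed, with mean normalized counts in CON of 1547 ± 85.7 and 356 ± 33.2 (SD, n = 4). *Sdc4* rose slightly, by 0.35 on the log2 scale in CHREBP against CON (SE 0.11, DESeq2 *Padj* = 0.0408), the 1 gene of 4 fitted from the list that was called, against 2.65% of all genes tested.

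Among 11 cytokines that induce these chemokines, *Ifnb1*, interferon beta, was the only one with enough counts to be fitted. It had 0, 4, 1 and 0 raw counts in CON replicates 1 to 4, 0 in every BMAL1 and BSA library, at most 1 in PAL, 8, 5, 2 and 2 in CHREBP and 9, 37, 12 and 19 in BOTH. The counts in BOTH were above those of every other library. The 1 library with the highest *Ifnb1* count, BOTH replicate 2, was the library highest in all 4 chemokine genes, and in CHREBP it was replicate 1 in both cases. Other libraries did not match in this way. BOTH replicate 4, next in *Ifnb1*, was the lowest of its group for *Cxcl9* and *Ccl5*. CON replicate 2, the highest of its group in *Ifnb1*, was highest for *Cxcl11* and *Ccl5*, whereas *Cxcl9* and *Cxcl10* were highest in replicate 3. *Ifnb1* was called higher in BOTH against CON (DESeq2 *Padj* = 0.000101) and not in CHREBP against CON (*Padj* = 0.339). Against BMAL1 it was called higher in CHREBP, at the equal dose of 100 nM (*Padj* = 0.0134), and in BOTH (*Padj* = 1.11e-06). No fold is given there, because every BMAL1 library was at 0. *Ifng*, *Il1a* and *Il1b* had 0 counts throughout, and *Tnf* had at most 4 counts in a library.

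Several sensors of foreign RNA were higher in the same groups. Of 11 sensors and adaptors, all fitted, 5 were called higher in CHREBP against CON, against 2.65% of all genes tested, and none lower, with a list median of 0.74 on the log2 scale against -0.0037 over all genes. *Tlr3*, the endosomal sensor of double-stranded RNA, rose by 2.08 (SE 0.36, DESeq2 *Padj* = 1.13e-06), *Ifih1*, which encodes the cytoplasmic sensor MDA5, by 1.90 (SE 0.32, *Padj* = 6.71e-07), and *Ddx58*, which encodes RIG-I, by 1.30 (SE 0.27, *Padj* = 0.000104). The kinase gene *Tbk1* had a log2 fold change of 0.16 (SE 0.11, *Padj* = 0.677). In BOTH against CON 5 were called higher as well, against 5.99% of all genes tested, and in CON against PAL 5, against 1.59%, with *Ifih1* at 1.58 (*Padj* = 2.33e-07). In BMAL1 against CON 1 of the 11 was called lower, against 0.324%. This was *Dhx58*, which encodes the RIG-I-like receptor LGP2 (log2 fold change -2.19, SE 0.63, *Padj* = 0.0881). With 1 library left out it was called in 1 of 8 fits, the one without CON replicate 1. It was not called with edgeR (0.283) or without independent filtering (0.139), and had no *Padj* with the 2 groups fitted alone.

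Of 12 transcription factors that act on these promoters, 11 were fitted, and 7 were called higher in CHREBP against CON, against 2.65% of all genes tested, and 9 in BOTH against CON, against 5.99%, with none lower. *Irf7*, an interferon-induced amplifier of the response, was 44.9, 355, 341 and 160 normalized counts in CON replicates 1 to 4 and 2448, 1347, 1071 and 1112 in CHREBP (log2 fold change 2.73, SE 0.55, DESeq2 *Padj* = 6.86e-05). It was lowest in CON replicate 1, as were the 4 chemokine genes, and did not overlap between CON and CHREBP. *Irf1*, an activator induced by interferon gamma and other cytokines, rose by 0.86 (SE 0.13, *Padj* = 4.37e-09). *Rela*, the NF-κB subunit p65, rose by 0.18 (SE 0.06, *Padj* = 0.0550). In BMAL1 against CON 2 of the 11 were called lower, against 0.324%, among them *Irf7* (log2 fold change -2.02, SE 0.56, *Padj* = 0.0691). *Irf7* too was called in 1 of 8 fits with 1 library left out, the one without CON replicate 1. It was not called with edgeR (0.166), without independent filtering (0.110) or with the 2 groups fitted alone (0.185).

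All of 9 interferon receptors and receptor kinases were fitted, and none was called in CON against PAL or in BMAL1, CHREBP or BOTH against CON (DESeq2 *Padj* under 0.1). The shares of all genes called in either direction were 2.51%, 0.490%, 3.42% and 9.73% in the same order, so that a count of 0 of 9 is near the background in each. In PAL against BSA 3 of the 9 were called lower, *Ifnar2*, *Ifngr2* and *Jak2*, against 7.60% of all genes tested. In BOTH against BMAL1 1 of the 9, *Ifnar2*, was called higher, against 6.35%. *Ifngr1*, *Jak1*, *Ifngr2* and *Jak2* had log2 fold changes between -0.01 and 0.16 in CHREBP against CON. Of 6 genes of negative feedback, 2 were called higher in CHREBP against CON, against 2.65% of all genes tested, and 4 in BOTH against CON, against 5.99%. *Usp18*, which restrains the type I interferon receptor, rose by 2.87 in CHREBP (SE 0.56, DESeq2 *Padj* = 3.79e-05) and by 3.85 in BOTH (*Padj* = 7.65e-10), whereas the NF-κB inhibitors *Tnfaip3* and *Nfkbia* had values of 0.06 and 0.11 in CHREBP, neither called, and rose by 0.34 and 0.30 in BOTH (*Padj* = 0.00191 and 0.0457). In BMAL1 against CON *Usp18* was the 1 gene of the 6 called lower, against 0.324% of all genes tested. It fell by 2.79 on the log2 scale (SE 0.57, DESeq2 *Padj* = 0.00132), from 366 ± 258 normalized counts in CON to 52.9 ± 7.51 in BMAL1 (SD, n = 4), and was called without each of the 8 libraries (DESeq2 *Padj* at most 0.0605) and with edgeR (0.0310).

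Of 31 other chemokine genes, 17 were fitted in the esiRNA groups. In CHREBP against CON none was called higher, against 2.65% of all genes tested, and 1 was called lower, *Ccl9*, against 0.771%, with a list median of -0.07 on the log2 scale against -0.0037 over all genes. A count of 0 of 17 is near the background. In BOTH against CON 2 were called higher, *Ccl2* and *Ccl7*, against 5.99%, and 2 lower, *Ccl9* and *Ppbp*, against 3.75%. *Ccl2*, the monocyte attractant, stood at 6215 ± 409 in CON (SD, n = 4) and had a log2 fold change of 0.18 in CHREBP (SE 0.08, *Padj* = 0.342), and rose by 0.57 in BOTH (*Padj* = 9.64e-10). *Ccl20*, a ligand of CCR6, and *Cxcl5*, a neutrophil attractant, had log2 fold changes of -0.20 and -0.30 in CHREBP, neither called. In BMAL1 against CON 2 genes of the list were called lower, against 0.324%, *Ccl9* and *Ccl20* (log2 fold change of *Ccl20* -0.52, SE 0.08, DESeq2 *Padj* = 5.83e-07). In CHREBP against BMAL1, at equal dose, 3 were called higher, *Ccl2*, *Ccl7* and *Ccl20*, against 2.90%. *Ccl7* was at 0.08 in CHREBP and rose by 0.47 in BOTH (*Padj* = 0.00114). *Ppbp*, a neutrophil attractant known from platelets, was at -0.18 in CHREBP (*Padj* = 0.843) and -0.70 in BOTH (SE 0.19, *Padj* = 0.00465). In PAL against BSA 11 of 15 fitted genes of this list were called lower, against 7.60% of all genes tested. Of the 4 genes, only *Cxcl10* and *Cxcl11* had a *Padj* in this comparison, and neither was called, which is near that share. *Cxcl11* had at most 11 raw counts per library there.

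Genes around the 4 were measured in the same way. Within 250 kb of *Cxcl9*, *Cxcl10* and *Cxcl11* lie 12 other protein-coding genes, of which 7 were fitted, and their log2 fold changes in CHREBP against CON ran from -0.06 to 0.32. Of the 7, 1 was called higher, against 2.65% of all genes tested. This was *G3bp2*, a stress granule gene (0.32, SE 0.10, DESeq2 *Padj* = 0.0589). In BOTH against CON 3 of the 7 were called higher, against 5.99%, namely *G3bp2* (0.62), *Sdad1* (0.44) and *Scarb2* (0.30). Around *Ccl5* lie 18 genes, of which 10 were fitted. In both comparisons none of the 10 was called higher, which is near the same shares, and 1 was called lower, against 0.771% in CHREBP and 3.75% in BOTH. This was the chemokine gene *Ccl9*. Its start is 48.1 kb from that of *Ccl5*, and it fell by 0.77 on the log2 scale in CHREBP against CON (SE 0.15, *Padj* = 4.09e-05), by 0.90 in BMAL1 against CON (*Padj* = 1.87e-05) and by 0.52 in BOTH against CON (*Padj* = 0.0114), having been higher by 1.18 in CON against PAL (*Padj* = 1.20e-10).

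**Figure D4:**
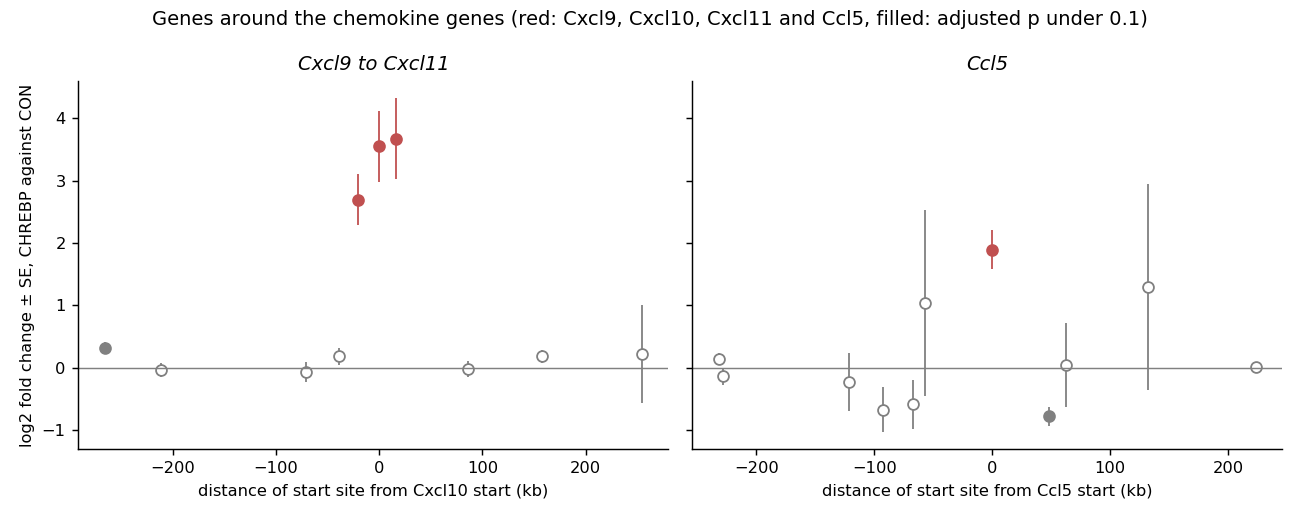
Log2 fold change ± SE of CHREBP against CON (vertical) for the fitted protein-coding genes around the chemokine genes, by the distance in kb of their start from that of *Cxcl10* or *Ccl5* (horizontal), with *Cxcl9*, *Cxcl10*, *Cxcl11* and *Ccl5* in red. Filled points had a *Padj* under 0.1, and the grey points around *Cxcl10* lie between -0.06 and 0.32, while the red points of the CXC genes lie between 2.69 and 3.67.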

How the data were processed

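The authors split the BRB-seq reads by barcode, mapped them with STAR (mm10) and counted reads for each gene, with both HTSeq and featureCounts named. What they deposited were raw counts for every gene in every library. Tool versions, strandedness and how molecular identifiers were treated are not given in the sources used here, and detection floors cover counting error only. Wald intervals of fold changes rest on the spread between libraries. Between 24.9% and 28.0% of the reads of a library stood in the line for reads not aligned, which, with 4 other summary lines, was left out.

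Groups came from the labels. DESeq2 1.42.0 (R 4.3.3) was run on genes whose counts summed to at least 25, by Wald test and Benjamini-Hochberg adjustment over all genes tested, with *Padj* under 0.1 called, as in the methods of the study. PAL with BSA and CON with PAL were fitted as 8 libraries, and the 16 esiRNA libraries together. Independent filtering left *Cxcl9* without a *Padj* in PAL against BSA. Ratios were compared by exact permutation (scipy 1.17.1). Size factors of all 24 libraries gave the normalized counts.

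Alternatives were edgeR 4.0.16, TMM size factors, other count filters, other sets of fitted libraries, a replicate block, other pseudocounts and leaving out each library. One further alternative, without independent filtering, was chosen after seeing the data. The fits were tested on simulated data for CHREBP against CON (13740 genes), where DESeq2 recovered 95% of 100 genes changed 2-fold and 100% of 100 changed 4-fold, with 25 of 220 calls false. Only genes with a mean of at least 20 were changed there. The simulated spread was a set function of the mean and was not taken from these libraries. The rates are therefore no measure of power for the 4 genes. The 4 genes, the gene lists and the rule for named genes (up to 4 of each list by mean level, all neighbours within 250 kb, the 5 most alike genes, the esiRNA targets) were chosen with earlier results of these data known. A few genes counted but named outside it, such as *Cxcr3*, *Ccr1*, *Ifng*, *Ifnar2*, *Dhx58*, *Ppbp* and marker genes at 0, were named after their values were seen. Some genes of the lists are counted but not reported here by name.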

Additional observations from a re-analysis of the deposited data

Results flagged for a closer look

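*Ccl5* in BMAL1 replicate 3 was 49.8 normalized counts, below the other 3 libraries of the group, which lay between 57.0 and 58.4. Its gap to the next library was 0.836 of the range of the group, above Dixon's 95% critical value for 4 libraries. It was 1 of 24 groups tested, and chance alone exceeds the limit in about 1 of 20.

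The effect of *Bmal1* esiRNA on the log2 scale was larger with *Chrebp* esiRNA than without it by 2.83 for *Cxcl10* (DESeq2 *Padj* = 0.0379) and by 1.98 for *Cxcl9* (*Padj* = 0.0713), by the interaction term. The call of *Cxcl10* was lost in 5 and that of *Cxcl9* in 5 of 16 fits without 1 library, *Cxcl9* having no *Padj* in 7 others, and *Cxcl9* was not called with edgeR (*Padj* = 0.166) or without independent filtering (0.103). In both genes the fitted change was negative without *Chrebp* esiRNA and positive with it. Dose changed in opposite directions in these effects and cannot be told apart from the difference.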

How the results depend on the processing

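In CHREBP or BOTH against CON or BMAL1, and in the likelihood ratio test, all 4 genes were called under each alternative and without each library. In PAL against BSA 0 were called throughout, although leaving out 1 library moved *Cxcl11* between -0.41 and 0.64 and *Cxcl10* between -0.027 and 0.34, and *Cxcl11* was 0.21 with the replicate block. Between 3 and 4 were called in CON against PAL, *Cxcl9* being lost with the replicate block (*Padj* = 0.167). In BMAL1 against CON leaving out 1 library gave 0 to 1 calls, with *Ccl5* between -0.29 and 0.10. Over all genes 45 were called lower there, 10 with edgeR, 16 with the replicate block, 26 without independent filtering, 74 with the 2 groups fitted alone and 11 to 85 with 1 library left out. *Irf7* (DESeq2 *Padj* = 0.227) and *Dhx58* (0.246) lost their calls there with the replicate block. In BOTH against CHREBP leaving out 1 library gave 0 to 2, and the 2 groups fitted alone gave 0. The interaction had 2 calls, 1 with edgeR, 1 without independent filtering (*Cxcl9* then at *Padj* = 0.103), 1 without the count filter, where *Cxcl9* had no *Padj*, 0 with the replicate block (*Cxcl10* at 2.53, *Padj* = 0.130) and 0 to 3 with 1 library left out. Replicate numbers did not pair the libraries, the mean correlation of same-numbered deviations lying between -0.05 and 0.11 over the 8 comparisons. Of 577 alternative fold changes of single genes, 516 kept direction and call and 29 had no *Padj*. Of the 36 ratio tests 15 to 17 were under 0.05 with a pseudocount of 0.5 or 5. The ratio of *Cxcl10* to *Ccl5* in CON against PAL turned from -0.69 to 0.33 with a pseudocount of 5, since PAL counts were near 0. The cause of the other changes was not tested. With 0 to 11 counts of *Cxcl9*, *Cxcl11* or *Ccl5* per untransfected library, depth limits each value there.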
